A study of Mus musculus with 10 samples.

Results

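The genes described here are 10 core regulators of the G1 phase of the cell cycle: the D-type cyclin genes Ccnd1, Ccnd2 and Ccnd3, the kinase genes Cdk4, Cdk6 and Cdk2, the E-type cyclin genes Ccne1 and Ccne2, and the inhibitor genes Cdkn1b and Cdkn2c. They were chosen by name, with earlier results of these data known, so the shares of members given below are descriptions. All probe sets that the platform annotation assigned to 1 of these symbols were taken, which gave 27 of 45101 probe sets on the array. D-type cyclins bind Cdk4 or Cdk6 and start the phosphorylation of the retinoblastoma protein, which holds E2F transcription factors in check. E-type cyclins then activate Cdk2 and carry the cell into S phase. Cdkn1b encodes a Cip/Kip inhibitor that acts mainly on cyclin-Cdk2 complexes, and Cdkn2c an Ink4 inhibitor that binds Cdk4 and Cdk6. Most adult blood stem cells rest outside the cycle, and in mice both inhibitors are known to restrain the division of blood stem or progenitor cells.

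The study asked which genes depend on the histone methyltransferase Mll (gene symbol Kmt2a) in adult blood stem cells, and measured RNA on Affymetrix Mouse Genome 430 2.0 arrays, with 5 arrays per group. Mll-deficient mice carried homozygous floxed Mll alleles and the Mx1-cre transgene, in which the interferon-responsive Mx1 promoter drives Cre recombinase, so deletion was not limited to blood cells. Control mice carried the same floxed alleles and no cre, so loss of Mll and the presence of cre cannot be told apart. Both groups were females of 8 weeks on a B6.SJL-Ptprca Pep3b/BoyJ background, and both received 3 injections of the interferon inducer pI:pC (10 µg/g with a further 50 µg) at intervals of 48 hours. On day 6, LSK/CD48- bone marrow cells, a stem-cell-enriched fraction that lacks lineage markers and CD48 and carries Sca-1 and Kit, were sorted, and RNA of 1500 to 10000 cells was amplified. No sample without pI:pC was measured, and the share of cells in cycle was not read. The values are therefore not those of untreated mice and need not be those of resting cells. The labels call the arrays of a group biological replicates.

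Values are signal intensities in arbitrary units, as deposited. Differences are Mll-deficient minus control on the log2(signal + 16) scale, which understates the change of dim genes, with the standard error (SE) and an adjusted p from limma over all 27022 probe sets above a filter on dim signals, unless another fit is named. The median signal of an array lay between 18.1 and 28.9. RNA quality was followed on the control transcripts of Gapdh and Actb, as the log2 signal near the 3' end minus that in the middle, which is higher where RNA is more truncated. It averaged 3.14 ± 0.60 in Mll-deficient samples and 2.95 ± 1.41 in controls (SD, n = 5 each; two-sided exact permutation p = 0.810). This log2 ratio is called the quality ratio below. Control replicate 5 stood apart, with a log2 ratio of 5.19 and a mean correlation with the other controls of 0.938, where the other 9 arrays had means between 0.957 and 0.964 within their groups. Neither probe set of the targeted gene passed the test: 1427283_at read 216 ± 97.2 in Mll-deficient samples and 260.2 ± 85.8 in controls (SD, n = 5 each), and where it lies relative to the deleted part was not analysed here.

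Markers of other cells were read alongside. Of 9 erythroid markers, 6 were tested and 5 of these rose in Mll-deficient samples (Klf1, Gata1, Epor, Ermap and Tfrc), where 3.76% of all tested genes were called higher. The other tested one, Alas2, did not pass (0.73 ± 0.45, SE, adjusted p = 0.389 among genes). The summed signal of the 6 and of Hba-a1, which lay below the filter, was 6886 to 11122 in Mll-deficient samples and 776 to 2279 in controls, so the groups did not overlap. Of the tested markers of other lineages, 0 passed in limma, while 7 of 18 had an unadjusted p below 0.05 (4 of them granulocyte and monocyte genes), against 20.7% of all tested genes. Of those 4, Mpo, Elane and Ms4a3 had higher means in Mll-deficient samples (log2 differences of 0.71, 0.97 and 0.67) and Itgam a lower one (-0.73). The rest of the 7 were Nkg7, with a higher mean (0.96), and the megakaryocyte genes Vwf and Gp1bb, with lower ones (-1.08 and -0.84). These lists held 5 tested markers for megakaryocytes (summed signal 1311 to 2529 against 1680.1 to 4606 in controls), 6 for granulocytes and monocytes (21769 to 49159 against 10966 to 53734), 5 for B cells (2089.4 to 15287 against 2958 to 10105) and 2 for T and natural killer cells (566 to 1278 against 248 to 579). The T cell genes Cd3e, Cd3g and Cd4 had means below the filter but are part of the sum of their list, and no marker was listed at 0. Of the gate's genes, Kit read 27.7 to 94.1 in Mll-deficient samples and 101 to 181 in controls on its brightest named probe set, with no overlap, but did not pass (adjusted p = 0.132 among genes). Cd48, which the gate excludes, read 68.7 to 172 in Mll-deficient samples and 44.1 to 197 in controls (adjusted p = 0.722 among genes). In bulk samples, fewer cells of a type and less RNA per cell cannot be told apart, and the part of the erythroid markers in the results below was not tested.

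Among the G1 genes, 1 of the 2 Ccne1 probe sets and 1 of the 3 Cdk4 probe sets rose in Mll-deficient cells. No member passed the test in the other direction. Of the 27 probe sets, 25 passed the filter, 2 were higher, 0 were lower and 23 did not pass. That is 8% of the member probe sets, where 3.28% of all tested probe sets passed (2.12% higher and 1.16% lower). Without adjustment, 9 of the 25 had a p below 0.05 (7 higher and 2 lower), as did 18.3% of all tested probe sets. The median difference of the 25 probe sets was 0.30, against -0.07 over all tested probe sets, and 17 lay above 0 and 8 below. Of these 25, 7 belonged to Ccnd2. Groups were apart, with every array of one above every array of the other, for 3 of the 25 (1416492_at of Ccne1, 1422439_a_at of Cdk4 and 1434745_at of Ccnd2), or 12%, and for 5.68% of all tested probe sets. With each gene represented by its brightest probe set, 1 of 10 members passed (Cdk4), or 10%, where 5.52% of 12580 tested genes did (3.76% higher and 1.76% lower). It was also the 1 member of 10 whose groups did not overlap on these probe sets, as was seen for 6.96% of all tested genes. Unadjusted, 4 of the 10 genes had a p below 0.05, against 20.7% of all tested genes. The median difference of the 10 genes was 0.04, against -0.04 over all tested genes, and 6 lay above 0 and 4 below.

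**Figure D1:**
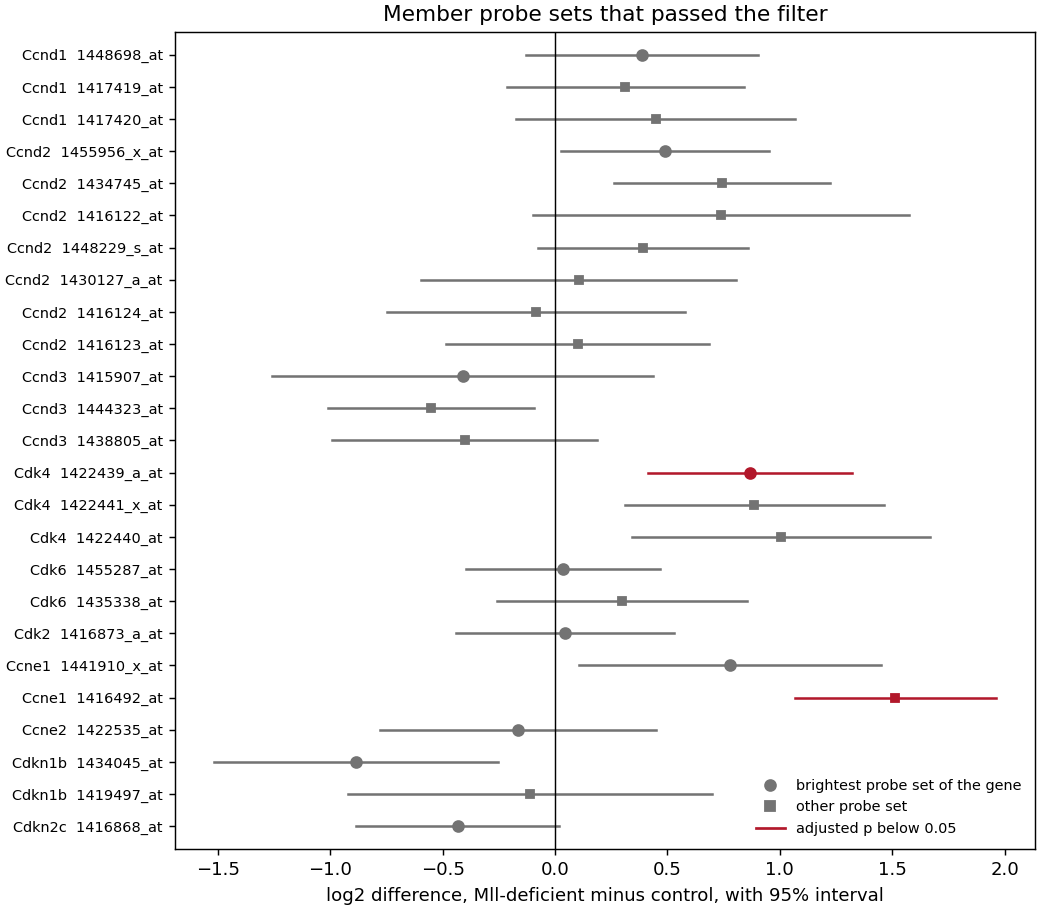
Log2 difference (Mll-deficient minus control) of the 25 member probe sets that passed the filter, with 95% intervals from limma. Circles mark the brightest probe set of a gene and red marks an adjusted p below 0.05, which 1416492_at of Ccne1 (1.51) and 1422439_a_at of Cdk4 (0.87) reached.

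The number of member probe sets that passed lay between 1 and 5 when each array was left out in turn, and it was 1 without any of the 5 Mll-deficient replicates and without control replicates 1, 3 and 4. It was 5 without control replicate 2 and 2 without control replicate 5. With the RNA quality ratio as a covariate, 7 member probe sets passed, 6 higher and 1 lower, while the count over all probe sets went up to 2433. Control replicate 5, which had the highest quality ratio, had the lowest signal of the 10 arrays for 10 of the 25 probe sets.

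Ccne1 encodes cyclin E1, the partner that activates Cdk2 late in G1. Its probe set 1416492_at read 1698, 1003, 1403, 1443 and 1481 in Mll-deficient replicates 1 to 5, against 474, 626, 496, 392 and 416 in control replicates 1 to 5. Every Mll-deficient array lay above every control array. The means were 1405 ± 253 and 481 ± 91.5 (SD, n = 5 each), and the rise of 1.51 ± 0.21 (SE) had a 95% interval of 1.07 to 1.96 and an adjusted p of 0.00104. By p this probe set ranked 35 of 27022. Its call held in each of the 10 leave-one-out fits, which omit 1 array each (1.44 to 1.63, adjusted p at most 0.00545) and in each of 10 other settings (1.43 to 1.57, adjusted p at most 0.00489), so it was as large without control replicate 5 (1.47) and with the quality ratio as a covariate (1.52).

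The brighter Ccne1 probe set, 1441910_x_at, read 2102, 1629, 5449, 5881 and 3063 in Mll-deficient samples, against 1601, 1807, 1546, 1692 and 2942 in controls. Mll-deficient replicates 3 and 4 were far above all other arrays, replicates 1 and 2 lay within the range of the controls, and control replicate 5 was the highest control. The difference was 0.78 ± 0.32 (SE) and did not pass (adjusted p = 0.199), with an interval of 0.10 to 1.45 that reaches the lower part of that of 1416492_at. The suffix _x_at marks, in the platform's naming, a probe set whose probes may also match other transcripts. Averaging both probe sets gave a rise of 1.15 ± 0.22 (SE, limma adjusted p = 0.0101 among genes). The same averaging ended the call of Cdk4 among genes (0.92, limma adjusted p = 0.0512), so that the 1 member gene called was then Ccne1.

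**Figure D2:**
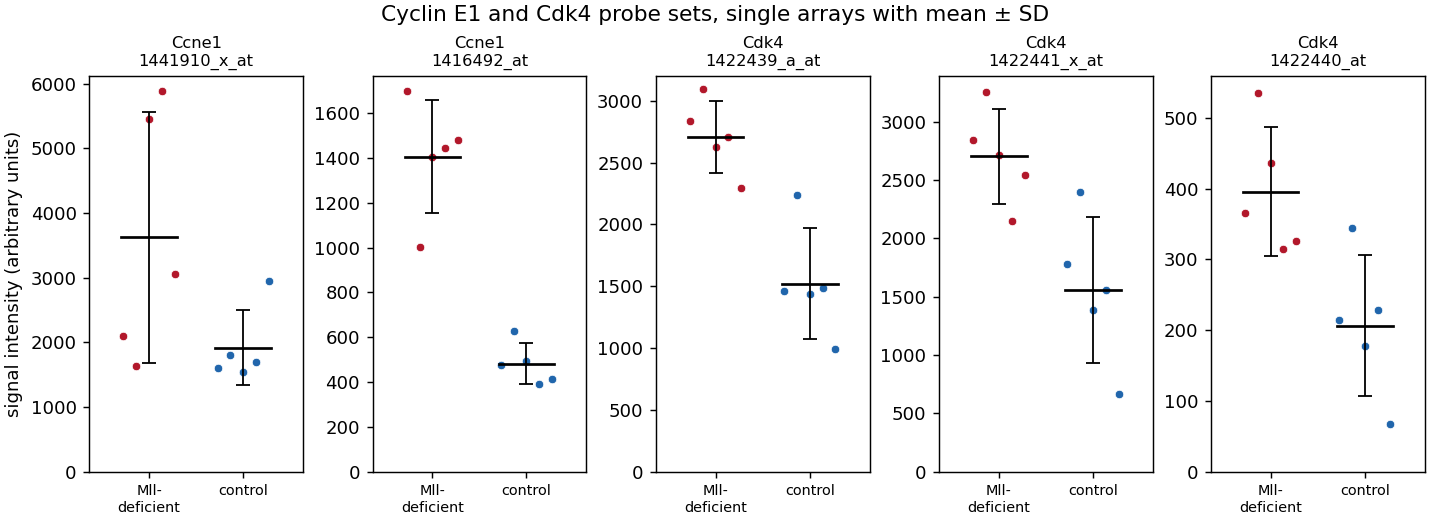
Signal intensity (arbitrary units, linear axes from 0) of both Ccne1 and all 3 Cdk4 probe sets, with points for single arrays and black bars for the mean ± SD of 5 Mll-deficient (left) and 5 control arrays (right). The groups are apart for 1416492_at and 1422439_a_at, while 1441910_x_at spreads from 1629 to 5881 in Mll-deficient samples.

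Ccne2 encodes cyclin E2, the close relative of cyclin E1. Its 1 probe set, 1422535_at, read 227, 302, 135, 429 and 444 in Mll-deficient samples, against 279, 226, 343, 363 and 415 in controls. The groups overlapped over most of their range. The difference was -0.16 ± 0.29 (SE, adjusted p = 0.827), with an interval of -0.78 to 0.45. This does not reach the interval of 1416492_at of Ccne1, but overlaps that of the brighter 1441910_x_at (0.10 to 1.45). Cdk2, the kinase that both E cyclins activate, read 181, 225, 144, 123 and 125 in Mll-deficient samples and 186, 185, 137, 133 and 121 in controls on 1416873_a_at. Replicates 1 and 2 were the highest in either group. Its difference was 0.04 ± 0.23 (SE, adjusted p = 0.944), with an interval of -0.44 to 0.53. The other Cdk2 probe set, 1447617_at, read at most 11.1 on any array and lay below the filter.

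Cdk4 encodes a catalytic partner of the D cyclins. Its brightest probe set, 1422439_a_at, read 2833, 3091, 2622, 2708 and 2296 in Mll-deficient samples, against 1460.3, 2234, 1435, 1484 and 992 in controls. The lowest Mll-deficient array lay just above the highest control, which was replicate 2, and control replicate 5 was the lowest of all. The means were 2709.9 ± 292 and 1521 ± 448 (SD, n = 5 each), and the rise of 0.87 ± 0.22 (SE) had an interval of 0.41 to 1.32 and an adjusted p of 0.0354.

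The other Cdk4 probe sets had differences as large but did not pass. Probe set 1422441_x_at read 2845, 3259, 2713, 2149 and 2547 in Mll-deficient samples and 1778, 2396, 1388, 1558 and 669 in controls, with a difference of 0.89 ± 0.27 (SE, adjusted p = 0.0863). Probe set 1422440_at read 366, 535, 437, 315 and 325 in Mll-deficient samples and 214, 344, 177, 229 and 67.7 in controls, with a difference of 1.01 ± 0.31 (SE, adjusted p = 0.0903). On both, only control replicate 2 reached into the range of the Mll-deficient arrays. The call of 1422439_a_at was lost in 8 of 10 leave-one-out fits (adjusted p up to 0.0832), although the difference stayed between 0.73 and 1.02 in all 10, and kept without control replicates 2 and 5 (adjusted p = 0.0154 and 0.0396). The differences of all 3 probe sets were smaller without control replicate 5, at 0.73, 0.62 and 0.69 in the order given here. With the quality ratio as a covariate all 3 passed, at 0.91, 0.97 and 1.11 (adjusted p = 0.00146, 8.62e-04 and 0.00149).

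Cdk6, the other kinase of the D cyclins and, from work on human cells, a factor that sets how readily a blood stem cell leaves rest, was among the members with the smallest difference. Its brightest probe set, 1455287_at, read 4064, 4444, 3586, 5199 and 5429 in Mll-deficient samples, against 3251, 4873, 5869, 4467 and 3866 in controls. All 5 Mll-deficient arrays lay within the range of the controls. The difference was 0.04 ± 0.20 (SE, adjusted p = 0.946). Its interval of -0.39 to 0.47 does not hold the change estimated for Cdk4 on 1422439_a_at (0.87), but overlaps the lower end of that interval (0.41 to 1.32). The sign of the difference turned under quantile normalization (-0.04). Probe set 1435338_at had a difference of 0.30 ± 0.26 (SE, adjusted p = 0.601), with an interval of -0.26 to 0.86, and of 0.059 without control replicate 5. Probe set 1460291_at, at most 17.5 on any array, lay below the filter.

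Promoter sequences are shown for the 2 genes with a probe set that rose and for Cdk6, as the relative of Cdk4 that did not pass, to set their sequence beside these values. They are RefSeq promoters of the GRCm38.p6 build, from 250 bases before to 50 after the annotated start, and 7 of the 10 members had an entry. In the Cdk4 promoter (chr10:127063285-127063584, + strand) and the Cdk6 promoter (chr5:3343643-3343942, + strand), capitals mark the E-box CACGTG, a sequence that Myc and related factors bind. In the Ccne1 promoter (chr7:38107441-38107740, - strand), capitals mark the GC box GGGCGG or its complement, which Sp1 and related factors bind.
Cdk4: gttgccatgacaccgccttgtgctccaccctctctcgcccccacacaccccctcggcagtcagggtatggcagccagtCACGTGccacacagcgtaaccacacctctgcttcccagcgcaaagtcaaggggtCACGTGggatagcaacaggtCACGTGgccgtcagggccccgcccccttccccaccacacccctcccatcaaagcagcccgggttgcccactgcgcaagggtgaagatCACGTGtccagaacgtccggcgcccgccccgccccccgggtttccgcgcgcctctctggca
Cdk6: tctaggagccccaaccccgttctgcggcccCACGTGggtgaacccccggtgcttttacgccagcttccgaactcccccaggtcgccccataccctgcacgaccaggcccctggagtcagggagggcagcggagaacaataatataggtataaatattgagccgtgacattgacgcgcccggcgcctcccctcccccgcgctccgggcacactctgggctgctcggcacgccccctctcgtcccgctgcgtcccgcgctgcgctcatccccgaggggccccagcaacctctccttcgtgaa
Ccne1: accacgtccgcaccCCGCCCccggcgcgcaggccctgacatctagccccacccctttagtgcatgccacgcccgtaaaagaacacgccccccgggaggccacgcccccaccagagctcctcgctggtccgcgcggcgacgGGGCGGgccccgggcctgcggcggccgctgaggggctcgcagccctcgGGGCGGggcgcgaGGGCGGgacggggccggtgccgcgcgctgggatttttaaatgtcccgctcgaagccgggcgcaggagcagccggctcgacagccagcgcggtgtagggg
The Cdk4 promoter held 4 E-boxes, whose first bases lay at -172, -118, -98 and -11 relative to the start, and the Cdk6 promoter held 1, at -220. In all, 3 of the 7 members with an entry held an E-box, the remaining one being Cdkn2c, with 1 at 34 in its second entry. Of all 32851 promoters of this length, 7.15% held at least 1 E-box and 0.0244%, or 8 promoters, held at least 4. The E-box reads the same on both strands and overlapped no GC box in the Cdk4 promoter. The Ccne1 promoter held 0 E-boxes and 4 GC boxes on either strand, where 35.7% of promoters held at least 1 GC box. GC boxes did not set Ccne1 apart, since 6 of the 7 members with an entry held one, among them Cdk2 with 6 and Cdk4 with 3. It held none of the 4 E2F spellings searched on both strands (TTTCCCGC, TTTGGCGC, TTTCGCGC and TTTGCCGC), which 2.26% of promoters held and which was found once among the members, in Cdk2. These matches describe letters in the window and are not measured binding sites. Other spellings and sequence outside the window were not searched, so a gene without a match may still hold such sites.

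Ccnd2 encodes cyclin D2, a D cyclin of many blood cells, and had 7 probe sets. Probe set 1434745_at read 2028, 2036, 2321, 2427 and 1678 in Mll-deficient samples, against 857, 1634, 1444, 1575 and 908 in controls. The groups did not overlap, with the lowest Mll-deficient array just above the highest control. The difference was 0.74 ± 0.23 (SE) with an interval of 0.26 to 1.22, and it did not pass (adjusted p = 0.0836). The brightest Ccnd2 probe set, 1455956_x_at, read 4358, 3183, 3362, 3859 and 3829 in Mll-deficient samples and 1629, 2495, 3563, 2633 and 3269 in controls. There, 3 Mll-deficient arrays lay above all controls, and the difference of 0.49 ± 0.22 (SE) did not pass (adjusted p = 0.242). The third in brightness, 1416122_at, differed by 0.74 ± 0.40 (SE, adjusted p = 0.343) and had its lowest value, 271, in control replicate 5. Without that array its difference was 0.32, and that of 1434745_at was 0.63. Without control replicate 1, the difference of 1455956_x_at was 0.32. With the quality ratio as a covariate, both 1434745_at and 1416122_at passed (0.77 and 0.87, adjusted p = 0.0203 and 0.0192). The other 4 Ccnd2 probe sets were dimmer and differed by -0.08 to 0.39 (adjusted p from 0.373 to 0.924).

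Ccnd1, the gene of cyclin D1, had 3 probe sets, which differed by 0.39, 0.31 and 0.45. Its brightest, 1448698_at, read 195, 205, 135, 177 and 226 in Mll-deficient samples and 74.95, 158, 176, 164 and 142 in controls. Of the Mll-deficient arrays, 4 lay above all controls, and control replicate 1 was lowest. None of the 3 passed (adjusted p from 0.432 to 0.555), and the interval of 1448698_at ran from -0.13 to 0.90. Without control replicate 1 its difference was 0.20.

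Ccnd3, the gene of cyclin D3, which in mouse is known for its part in the division of immature lymphoid and red cells, lay lower on all 3 probe sets but did not pass. Its brightest, 1415907_at, read 929, 1313, 1281, 591 and 499 in Mll-deficient samples, against 2617, 1841, 934, 1081 and 399 in controls. Control replicates 1 and 2 were the highest of the 10 arrays and control replicate 5 the lowest, so the control range held that of the Mll-deficient arrays. The difference was -0.41 ± 0.40 (SE, adjusted p = 0.647), and it depended on single arrays. It was -0.12 without control replicate 1, -0.22 without Mll-deficient replicate 5, -0.24 without control replicate 2 and -0.78 without control replicate 5, and passed in none of these fits (adjusted p from 0.191 to 0.923). The dimmer 1444323_at read 125, 92.8, 156, 111 and 103 in Mll-deficient samples and 169.8, 207, 193, 133 and 192 in controls. Only Mll-deficient replicate 3 lay within the control range, and the difference was -0.55 ± 0.22 (SE, adjusted p = 0.179). The remaining probe set, 1438805_at, differed by -0.40 ± 0.28 (SE, adjusted p = 0.486).

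**Figure D3:**
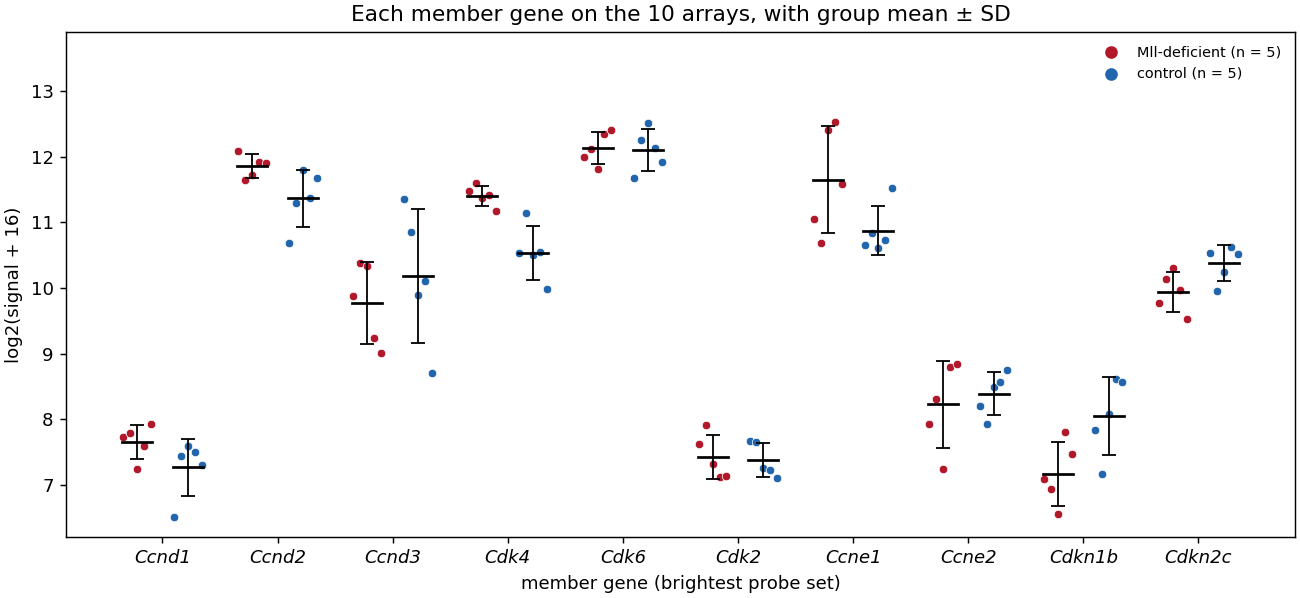
The brightest probe set of each of the 10 genes on the log2(signal + 16) scale, with points for single arrays and bars for the mean ± SD of 5 Mll-deficient arrays (red, left) and 5 control arrays (blue, right) per gene. The groups are apart for Cdk4 alone on these probe sets. Heights are not comparable between genes, since each probe set has its own affinity.

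Cdkn1b, which encodes the Cip/Kip inhibitor of cyclin-Cdk2, had the largest negative difference among the 25 tested member probe sets. Probe set 1434045_at read 119, 106, 77.5, 208 and 161 in Mll-deficient samples, against 213, 127, 254, 375 and 362 in controls. Mll-deficient replicates 1 to 3 lay below all controls, and control replicate 2 was the lowest control. The means were 134 ± 50.8 and 266 ± 104 (SD, n = 5 each). The difference of -0.88 ± 0.30 (SE) had an interval of -1.52 to -0.25 and did not pass (adjusted p = 0.118). It passed without control replicate 2 (-1.11, adjusted p = 0.0379) and with the quality ratio as a covariate (-0.94, adjusted p = 0.0248), and in none of the other 18 fits. The other Cdkn1b probe set, 1419497_at, read at most 48.5 on any array, as little as 0.737 on another, and differed by -0.11 ± 0.38 (SE, adjusted p = 0.916).

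Cdkn2c, the gene of the Ink4 inhibitor, had 1 probe set, 1416868_at, which read 859, 1105, 1252, 987 and 719.6 in Mll-deficient samples, against 1469.5, 977, 1193, 1558 and 1451 in controls. Of the Mll-deficient arrays, 2 lay below all controls and the others within their range. The difference was -0.43 ± 0.21 (SE), with an interval of -0.89 to 0.02 and an adjusted p of 0.298, and it stayed between -0.54 and -0.33 when single arrays were left out.

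Whether relatives changed unequally was tested on the difference of their log2 values within each array, for 6 pairs of brightest probe sets. Cdk4 minus Cdk6 averaged -0.73 ± 0.34 in Mll-deficient samples and -1.56 ± 0.43 in controls (SD, n = 5 each), so the difference of Cdk4 exceeded that of Cdk6 by 0.83 (two-sided exact permutation p = 0.0238, adjusted over the 6 pairs 0.143). Ccne1 minus Ccne2 differed between the groups by 0.94 (exact permutation p = 0.0794, adjusted 0.238) and Ccnd2 minus Ccnd3 by 0.90 (exact permutation p = 0.246, adjusted 0.324). The difference for Ccne1 minus Ccne2 was 0.50 without Mll-deficient replicate 3, and that for Ccnd2 minus Ccnd3 was 0.44 without control replicate 1 and 1.35 without control replicate 5. The remaining 3 pairs (Ccnd1 with Ccnd2, Ccnd1 with Ccnd3 and Cdkn1b with Cdkn2c) had unadjusted exact p between 0.254 and 0.524. No pair passed after adjustment. With the probe sets of each gene averaged, 3 pairs passed (Ccnd2 with Ccnd3, 0.81, Cdk4 with Cdk6, 0.85, and Ccne1 with Ccne2, 1.31, each with an adjusted exact permutation p of 0.0317), and Cdk4 with Cdk6 also passed under quantile normalization (0.86, exact permutation p = 0.00794, the smallest that 5 against 5 arrays allow, adjusted 0.0476). The averaged Cdk6 values took in 1460291_at, which lay below the filter.

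Other genes of the pathway were read from the fit over 12580 genes, each by its brightest probe set. Of 13 genes of the retinoblastoma and E2F families, 0 passed in limma, where 4 had an unadjusted p below 0.05, all with lower means in Mll-deficient samples (20.7% of all tested genes had such a p in either direction), and the median difference was -0.08, against -0.04 over all tested genes. Rb1, the gene of the retinoblastoma protein, had the smallest p and read 259, 459.7, 445, 536 and 207 in Mll-deficient samples, against 628, 541, 644, 599 and 927 in controls. Its groups did not overlap, and its difference of -0.84 ± 0.26 (SE) did not pass (adjusted p = 0.0730). Of the other inhibitor genes, 3 of 5 were tested and 0 passed (1 had an unadjusted p below 0.05), with Cdkn1c, a Cip/Kip relative of Cdkn1b, at -0.68 ± 0.29 (SE, adjusted p = 0.195). Cdkn2a and Cdkn2b lay below the filter.

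Among E2F target genes that act in S phase, 2 of 20 tested rose (10%), 0 fell and 18 did not pass, where 3.76% of all tested genes were called higher, and the median was 0.44. Unadjusted, 7 of the 20 had a p below 0.05, all with higher means in Mll-deficient samples, against 20.7% of all tested genes. The groups were apart for 4 of the 20, against 6.96% of all tested genes. Mcm2, a subunit of the replicative helicase, read 2716, 1695, 2163, 2732 and 4349 in Mll-deficient samples, against 734, 1102, 1404, 892 and 1438 in controls. Its groups did not overlap, and its rise of 1.26 ± 0.26 (SE, adjusted p = 0.0116) held in all 10 leave-one-out fits. Its other probe set, 1448777_at, had a difference of 0.93 ± 0.25 (SE) and did not pass (adjusted p = 0.0523 among probe sets). Cdc6, which loads that helicase onto DNA, rose by 0.81 ± 0.22 (SE, adjusted p = 0.0380), and its call was lost in 7 of them, with differences between 0.72 and 0.92 over the 10. The replicate block also ended the call (0.81, adjusted p = 0.0577). Of 12 tested genes in a list of other cyclins, kinases, phosphatases and their partners, 0 passed (median 0.19). The phosphatase gene Cdc25c was nearest at 0.53 ± 0.24 (SE, adjusted p = 0.219) and was the 1 gene of the list with an unadjusted p below 0.05. Of 9 genes for the turnover of G1 regulators 0 passed, and 0 had an unadjusted p below 0.05 (median 0.15). Skp1, a subunit of the ubiquitin ligase that marks the Cdkn1b protein for destruction, was nearest at 0.33 ± 0.19 (SE, adjusted p = 0.363).

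Of 13 genes that signal to the D cyclins, 1 rose and 12 did not pass (median 0.0035), where 3.76% of all tested genes were called higher. Only the riser and Stat3 had an unadjusted p below 0.05, against 20.7% of all tested genes. Stat3 had a lower mean in Mll-deficient samples (log2 difference of -0.79) and did not pass. The riser was Myc, a transcription factor gene, which read 802, 623, 619.6, 664 and 959 in Mll-deficient samples, against 299.6, 433, 484, 556 and 331 in controls. Its groups did not overlap, and its rise was 0.79 ± 0.22 (SE, adjusted p = 0.0455). The call ended in 9 of 10 leave-one-out fits, all but that without control replicate 4, and under 4 other settings, among them the replicate block (adjusted p = 0.0893). The difference stayed between 0.69 and 0.90 in the leave-one-out fits and between 0.73 and 0.85 under the other settings.

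**Figure D4:**
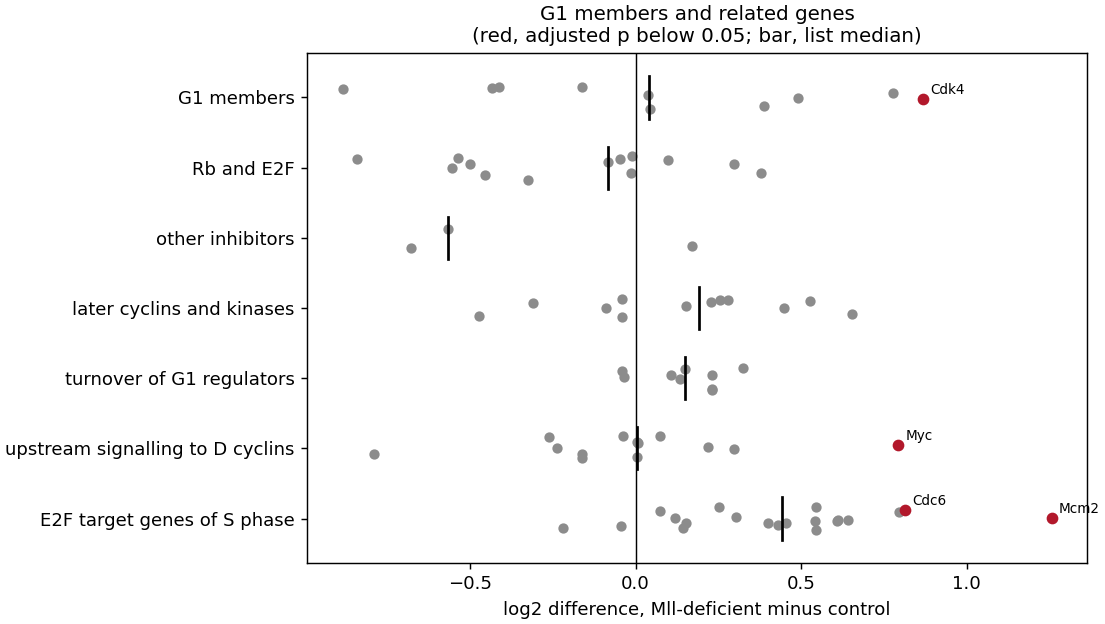
Log2 difference (Mll-deficient minus control) of each tested gene, by its brightest probe set, for the 10 G1 genes and 6 related lists. Red points have an adjusted p below 0.05 over all tested genes (Cdk4, Myc, Cdc6 and Mcm2), and the bar of each row is its median, which is highest, at 0.44, for the E2F target genes.

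The genes whose course over the 10 arrays was most like that of a member were found by the root mean square difference of log2 values, each centred on its own mean. For Cdk4, the member with the smallest p among genes, these were Ruvbl1 (0.133), Pwp2 (0.140) and Fitm2 (0.145). For Cdk6, the member with the highest mean, they were Trim44 (0.125), Gmcl1 (0.129) and Serpinb9 (0.136). Choosing genes by their course over these arrays also sets their difference between the groups, which is given as a description: 0.85, 0.89 and 0.73 for the 3 genes closest to Cdk4, and -0.14 to 0.10 for the 3 closest to Cdk6.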

How the data were processed

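RNA of LSK/CD48- cells of 5 Mll-deficient and 5 control mice was measured, with 1 array per sample. The authors deposited 1 linear signal intensity for each probe set, and the submitters' processing notes name MAS5 5.0. Every array had a trimmed mean of 150.001 (2% of probe sets removed at each end), so differences in total RNA per cell are removed. The precision is limited by the number of arrays. A platform annotation, updated through the RefSeq gene table of GRCm38.p6, gave 34958 of 45101 probe sets 1 symbol (34754 found in RefSeq), 932 several and 9211 none here, and names were taken only from those with 1 symbol.

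Values were taken as log2(signal + 16). The 27022 probe sets with a mean above the 40th percentile (12580 genes by brightest probe set) were fitted by group in R 4.3.3 using limma 3.58.1 (lmFit, eBayes with intensity trend, two-sided, Benjamini-Hochberg, threshold 0.05). Single values were compared by two-sided exact permutation tests. The members and lists were chosen with earlier results of these data known. All members were named, with up to 4 called genes of each pathway list or else the 1 with the smallest p, the 3 genes closest to 2 members, and Kmt2a. The fits were tested on simulated data.

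Alternatives covered the offset, normalization, filter, variance prior, array weights, replicate block, RNA quality covariate, threshold, averaging of probe sets and leaving out each array. The main fit did not pair the arrays by replicate number. Correlations of deviations between same-numbered arrays ran from -0.18 to 0.24, and only for replicate 5 was the same-numbered array the best match. So few values cannot exclude a pairing or a shared batch.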

Additional observations from a re-analysis of the deposited data

Results flagged for a closer look

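In 5 of 56 groups of 5 values (27 probe sets and the RNA quality ratio, in both groups), 1 array lay far from the other arrays of its group by Dixon's test on the log2 scale. Chance alone flags about 1 in 20 such groups. Control replicate 5 accounted for 3 of them. It read 352 for 1435338_at of Cdk6, below the other controls, and 73.3 for 1417420_at of Ccnd1 and 2942 for 1441910_x_at of Ccne1, above the other controls. Control replicate 1 read 74.95 for 1448698_at of Ccnd1, below the other controls. Mll-deficient replicate 5 read 24.0 for 1416123_at of Ccnd2, below the other arrays of its group. None of these 5 probe sets passed the test with all arrays.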

How the results depend on the processing

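The rise of 1416492_at of Ccne1 passed in all 20 alternative fits. For the other probe sets, the number of calls depended on the processing. Leaving out each array in turn gave 308 to 1129 calls over all probe sets (887 with all arrays), 1 to 5 among member probe sets, 317 to 875 over all genes (694 with all arrays), 0 to 2 among member genes and 0 to 0 pairs of relatives. The RNA quality covariate gave 2433 and 1618 calls over all probe sets and genes and 7 and 2 among members. A threshold of 0.01 left 187 and 175 calls, with 1 and 0 among members, and one of 0.10 gave 1707 and 1187, with 5 and 2 among members. Without the filter 588 probe sets passed. The call of 1422439_a_at of Cdk4 ended without the filter (adjusted p = 0.0566), with median centring (0.0540) and without the intensity trend (0.0502), which left 1 member probe set each, while its difference was 0.87, 0.93 and 0.87 under these settings. Pairs of relatives numbered 1 under quantile normalization and 3 with averaged probe sets. Median centring put 81.4% of calls higher, against 64.6%. The replicate block left 2 member probe sets called, of 781, and changed no call among the members. Signs turned only for uncalled members near 0: 1455287_at of Cdk6 under quantile normalization (-0.039) and between -0.070 and 0.14 without single arrays, 1430127_a_at of Ccnd2 with array weights (-0.065) and between -0.16 and 0.33, 1416124_at of Ccnd2 with array weights (0.089) and between -0.23 and 0.17, 1416123_at of Ccnd2 between -0.087 and 0.31, 1416873_a_at of Cdk2 between -0.079 and 0.12, 1419497_at of Cdkn1b between -0.41 and 0.12, and 1422535_at of Ccne2 between -0.32 and 0.083. The cause of these changes was not tested. Dim probe sets limit what the smaller differences can show.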
